A study of Mus musculus with 147 samples.

Results

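Microglia and peritoneal macrophages of mice kept on a normal diet were compared in 9 libraries of a series of 147, chosen by their population and diet labels alone. The microglia group held 4 libraries (replicates 1_5 and 1_6 of cohort 6_HFD, replicates 3_17 and 3_18 of cohort 8_HFD), and the peritoneal group held 5 libraries (replicates 1 to 5, each from a cohort of its own, 1_HFD to 5_HFD). Per the labels, the mice of both groups received neither a high-fat diet nor streptozotocin (STZ, a toxin of the insulin-producing beta cells) and were not part of the fasting experiment. Cells were sorted by flow cytometry and polyadenylated RNA was made into libraries by Smart-seq2. A microglia library started from 5000 cells and a peritoneal library from 100000 cells. Population, cohort and number of starting cells therefore change together, and their parts in a difference cannot be told apart. Strain, age and sex of the mice are not given in the labels used here, and nothing says whether a library came from a single animal, so a p-value measures the spread between these libraries. Other settings of the series with the same contrast served for comparison: mice fasted for 12 h (8 microglia and 8 peritoneal libraries, 400 cells each, cohorts shared between the populations), mice on a high-fat diet for 8 weeks (4 and 4 libraries), and mice on that diet with STZ at week 4 (4 and 5 libraries).

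Both populations are tissue macrophages that settle in the embryo and depend on signalling through the receptor of colony stimulating factor 1. Microglia are the macrophages of the brain parenchyma. Their state rests on TGF-beta from neighbouring cells and on the transcription factor Sall1, and they survey the tissue with processes guided by the nucleotide receptor P2ry12. Large peritoneal macrophages float in the fluid of the body cavity. They require the transcription factor Gata6, which is induced by retinoic acid made in the omentum, and they are known for clotting factors, the adhesion protein fibronectin and the 12/15-lipoxygenase Alox15. Once cells are taken from a tissue, dissociation and heating can induce immediate early genes within minutes.

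Depth was 18.49 to 20.61 M counts in the microglia libraries and 14.37 to 19.04 M counts in the peritoneal libraries. Levels below are CPM, counts per 1000000 of the library size, adjusted by the TMM method, and ± is the SD over 4 microglia or 5 peritoneal libraries, except that ± after a log2 fold change is its SE. A log2 fold change is microglia over peritoneal macrophages, so a positive value means higher in microglia. A gene was called at an edgeR quasi-likelihood adjusted p (Benjamini-Hochberg) below 0.05 and a change of at least 1 on the log2 scale. Log expression over the 13413 tested genes correlated at a median r of 0.643 between libraries of the different populations. Within a population, microglia replicate 3_17 stood apart (median r 0.874 with its group, against 0.926 to 0.941 for the other microglia), as did peritoneal replicate 3 (0.920, against 0.968 to 0.976). In peritoneal replicate 3 the 50 most abundant genes took 41.8% of the counts, against 30.4% to 34.5% in the others. Mitochondrially encoded genes took 0.77% to 1.07% of counts in microglia and 2.25% to 3.51% in peritoneal macrophages, and ribosomal protein genes 0.47% to 0.63% and 1.68% to 2.91%. The part of RNA quality in the results was not tested.

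Marker lists of other cells summed to less than those of the labelled populations, and some bear on later results. Sums over a list are CPM of all counts, without the scaling. The summed CPM of the 26 microglia homeostatic genes was 54408 to 60229 in microglia libraries and 2432 to 2794 in peritoneal libraries. Genes of the choroid plexus and ependyma (6 of 7 with counts in microglia, 4 of 7 in peritoneal libraries) summed to 144 to 1122 CPM in microglia, highest in replicate 1_6, and to at most 1.63 CPM in peritoneal macrophages. Ttr, the transthyretin gene of the choroid plexus, led that list with 136, 626, 81 and 64.5 CPM in the 4 microglia libraries. Neutrophil genes summed to 7.86 to 368 CPM in microglia, lowest in replicate 3_18 and highest in 3_17, and to 18.4 to 26.6 CPM in peritoneal macrophages, with Ly6g at 0 in both. B cell genes summed to 619 to 706 CPM in microglia, where Ighm gave most of the sum and Ms4a1 and Pax5 were at 0. In the peritoneal libraries they summed to 35.1 to 112.9 CPM, except for 875 CPM in replicate 2. Mast cell genes summed to 0 to 6.59 CPM in microglia and to 125 to 211 CPM in peritoneal macrophages, of which Hdc gave a mean of 128 CPM, and T and NK cell genes to at most 3.08 and 10.7 CPM. Neurons (3.27 to 70.5 against 5.05 to 12.4 CPM), oligodendrocytes (155 to 268 against 150.2 to 213 CPM) and mesothelium with fibroblasts (0 to 28.6 against 0.0692 to 2.76 CPM) showed overlapping ranges. Their members differed. Of 12 neuron genes, 12 had counts in microglia and 6 in peritoneal libraries, where Tubb3 led (5.17 CPM). Snap25 and Syt1 had 226 and 151 counts in microglia and 0 in peritoneal libraries. Of the leading oligodendrocyte genes, Cnp was lower in microglia (75.2 against 132.9 CPM). Mbp (66.7 against 37.5 CPM) and Mag (56.4 against 4.83 CPM) were higher there. The astrocyte sum was 161 to 344 CPM in microglia, of which the glutamate transporter Slc1a3 gave most, and 6.82 to 24.5 CPM in peritoneal macrophages. The dendritic cell list summed to 2394 to 2550 CPM in microglia, of which Siglech, also a microglial gene, gave a mean of 2433 CPM, and to 15.2 to 37.2 CPM in peritoneal macrophages. The plasma cell list, led by Xbp1 in both, summed to 550 to 629 CPM in microglia and 396 to 494 CPM in peritoneal macrophages. In bulk libraries like these, fewer cells of a type and less RNA per cell cannot be told apart.

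**Figure D1:**
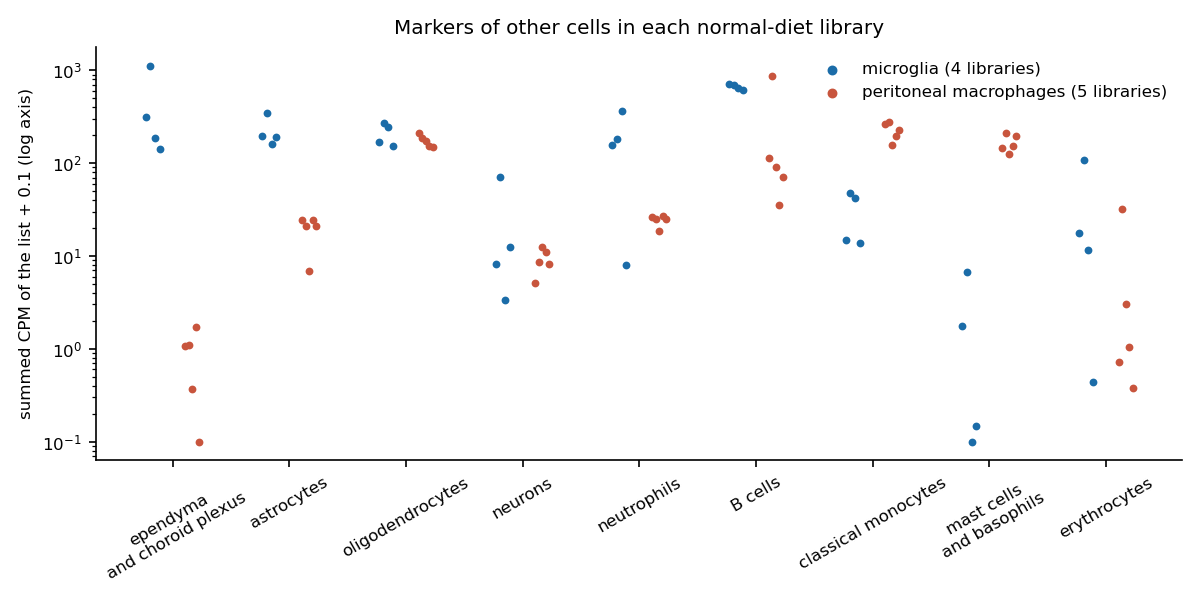
Summed CPM of marker lists of other cells (vertical axis, log scale, 0.1 added) in each normal-diet library, microglia in blue on the left of each pair and peritoneal macrophages in red on the right. Choroid plexus genes stand highest in microglia replicate 1_6 (1122 CPM) and B cell genes in peritoneal replicate 2 (875 CPM).

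The populations differed in 5018 of the tested genes, in both directions. edgeR called 2354 genes higher in microglia (17.6% of 13413 tested) and 2664 lower (19.9%). In 2085 and 2494 of these the libraries of the populations did not overlap. Over all tested genes, called or not, 5656 (42.2%) showed no overlap. Differences beyond 5 log2 units were seen in 1247 genes, 444 of them higher and 803 lower in microglia. Per kilobase of exon, the most abundant transcripts of microglia included Cst3, the protease inhibitor cystatin C (15672 CPM per kb), Fos, an immediate early transcription factor (5640.1 CPM per kb), the cathepsin gene Ctss (5139 CPM per kb) and the complement gene C1qb (4552 CPM per kb). Those of peritoneal macrophages were the lysozyme gene Lyz2 (88331 CPM per kb), the protease inhibitor gene Slpi (10385 CPM per kb), Apoe, which carries lipids (6604 CPM per kb), beta-actin Actb (5955 CPM per kb) and C1qb (5385 CPM per kb). Lyz2 stood at 253, 407, 339 and 259.7 CPM in microglia and at 76365, 92106, 219431, 92552 and 100762 CPM in peritoneal macrophages, and its share was largest in peritoneal replicate 3. Lyz1 and Lyz2 are near-identical in part, and reads may be shared between them.

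Microglia were set apart by the genes of their homeostatic state. Of the 26 homeostatic genes tested, 24 were higher in microglia and 2 lower, with a median log2 fold change of 7.64, against -0.06 over all tested genes. For this and each later list count on normal diet, the shares over all tested genes were 17.6% higher and 19.9% lower. A list count near those shares is not a trait of the list. Sall1, a zinc finger repressor that keeps microglial identity (chromosome 8, 89027235 to 89044162, minus strand, mm10), had 483, 378, 514 and 512 CPM in the 4 microglia libraries and no count in any of the 5 peritoneal libraries. Its level was at least 10899-fold higher in microglia, taking 3 counts over the peritoneal group as the floor. The same held for Siglech, a sialic acid binding receptor (chromosome 7, 55768178 to 55778925, plus strand), at 2084, 2208, 1967 and 2049 CPM in microglia and 0 in peritoneal macrophages, or at least 47648-fold higher, and for the Sall1 paralog Sall3 (144 ± 25 CPM against 0, at least 3279-fold higher). These 3 genes separated the populations library by library.

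Receptors with which microglia sense their surroundings came next. Cx3cr1, the receptor of the neuronal chemokine fractalkine, was at 6899, 6618, 6073 and 6264 CPM in microglia and at 0.607, 3.76, 0.411, 0.114 and 0.52 CPM in peritoneal macrophages, a log2 fold change of 12.54 ± 0.92 (edgeR adjusted p = 1.75e-06). P2ry12, the ADP receptor that steers microglial processes, was at 5825, 3728, 4714 and 4990.4 CPM in microglia and at 13.7, 22.7, 4.72, 9.28 and 11.4 CPM in peritoneal macrophages (log2 fold change 8.60 ± 0.49, edgeR adjusted p = 3.36e-07). All 4 microglia libraries lay far above all 5 peritoneal libraries for both receptors, and without peritoneal replicate 2 the fold change of Cx3cr1 was 13.94 on the log2 scale. Tmem119, a membrane protein used as a microglial marker, averaged 4137 ± 212 CPM in microglia and 21.7 ± 4.48 CPM in peritoneal macrophages. Secreted and surface proteins of the list followed, namely Sparc (2277 ± 132 CPM in microglia, 0.0404 ± 0.0904 CPM in peritoneal macrophages), Olfml3 (2349 ± 205 CPM in microglia, 0.132 ± 0.296 CPM in peritoneal macrophages) and the lysophosphatidylserine receptor Gpr34 (2197 ± 262 CPM in microglia, 0.755 ± 0.502 CPM in peritoneal macrophages). The members with the smallest differences in that direction were the selectin ligand Selplg (1.32 ± 0.28) and the granulocyte colony stimulating factor receptor Csf3r (1.31 ± 0.30 on the log2 scale). Ltc4s, leukotriene C4 synthase, and Cmklr1, the chemerin receptor, ran the other way, with 48.8 ± 6.04 CPM in microglia against 195 ± 90.2 CPM in peritoneal macrophages and 16.6 ± 3.86 CPM in microglia against 67.4 ± 4.72 CPM in peritoneal macrophages.

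Outside the homeostatic list, the genes with the largest differences in the microglial direction and at least 100 CPM included Adgrg1 (644 ± 64.3 CPM in microglia, 0 CPM in peritoneal macrophages), an adhesion G protein coupled receptor also called Gpr56, and the navigator gene Nav3 (329.9 ± 37.4 CPM in microglia, 0 CPM in peritoneal macrophages). Upk1b, a tetraspanin first known from the bladder (218 ± 31.4 CPM in microglia, 0 CPM in peritoneal macrophages), and Spint1, a protease inhibitor (185 ± 73.3 CPM in microglia, 0 CPM in peritoneal macrophages), belonged to the same 10. Slc1a3, a glutamate transporter that is also an astrocyte marker, had 156, 213, 125 and 147 CPM in microglia and no peritoneal count. The astrocyte genes Gfap, Aqp4 and Aldh1l1 averaged 1.97, 1.69 and 0.142 CPM in those microglia libraries, and Clu and Slc1a2 10.5 and 7.29 CPM, both highest in replicate 1_6.

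Peritoneal macrophages showed the large peritoneal macrophage program. All 25 tested members of its list were lower in microglia, with a median log2 fold change of -13.10. Prg4, which encodes the lubricant proteoglycan 4 (chromosome 1, 150449412 to 150466165, minus strand), stood at 0.186, 0.0925, 0 and 2.19 CPM in microglia and at 6975, 11271, 8226, 10999 and 10627 CPM in peritoneal macrophages (log2 fold change -13.88 ± 1.26, edgeR adjusted p = 8.35e-06). The groups did not overlap, and without microglia replicate 3_18, the highest of its group, the log2 fold change was -16.59. Gata6, the transcription factor on which these cells depend, had no microglia count and 29.4, 31.4, 39.3, 31.9 and 32.8 CPM in peritoneal macrophages, at least 996-fold lower in microglia. Alox15, a lipoxygenase that oxidises arachidonic and linoleic acid (chromosome 11, 70344152 to 70352031, minus strand), had 2 counts over the 4 microglia libraries and 10943, 10590.4, 15140.1, 10822 and 11288 CPM in the peritoneal libraries, a ratio of 528975-fold (95% counting interval 146436 to 4367919). It was thus all but missing from microglia.

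The list holds adhesion and matrix genes. Fn1, fibronectin, averaged 0.368 ± 0.71 CPM in microglia and 24526 ± 8966 CPM in peritoneal macrophages. Ltbp1, which binds latent TGF-beta in the matrix, had 1 count in all microglia and 2109, 1987, 1125, 2395 and 2807 CPM in peritoneal macrophages. Peritoneal replicate 3 was the lowest of its group for Ltbp1. The platelet and endothelial adhesion receptor Selp (at least 38789-fold lower in microglia, 1298 ± 283 CPM in peritoneal macrophages), the leukocyte ligand Icam2 (1.4 ± 1.01 CPM in microglia, 1514 ± 792 CPM in peritoneal macrophages) and thrombospondin Thbs1 (24.1 ± 13 CPM in microglia, 4643 ± 2268 CPM in peritoneal macrophages) belonged here as well. Among secreted products, the B cell attracting chemokine Cxcl13 averaged 0.0231 ± 0.0462 CPM in microglia and 1046 ± 698 CPM in peritoneal macrophages, the acute phase protein Saa3 0.0348 ± 0.0444 CPM in microglia and 1543 ± 744 CPM in peritoneal macrophages, and the scavenger protein Cd5l, also called AIM, had no microglia count and 3434 ± 1209 CPM in peritoneal macrophages (at least 100809-fold lower in microglia). Ednrb, an endothelin receptor, averaged 1.81 ± 2.13 CPM in microglia and 2736 ± 288 CPM in peritoneal macrophages. The smallest differences of the list were those of the tetraspanin Cd9 (-1.04 ± 0.33), the laminin-binding integrin Itga6 (-1.91 ± 0.22) and Garnl3 (-2.87 ± 0.25 on the log2 scale), which were at 652 ± 56.8, 199 ± 25.2 and 45.8 ± 11.1 CPM in microglia. Cd9 was not called without peritoneal replicate 3 or microglia replicate 1_5, 1_6 or 3_18. Beyond the list, the 10 genes with the largest differences in the peritoneal direction took in Padi4, a peptidylarginine deiminase (0 CPM in microglia, 2123 ± 363 CPM in peritoneal macrophages), the ficolin gene Fcna (0 CPM in microglia, 1749.7 ± 1022 CPM in peritoneal macrophages) and Lyz1, which had no microglia count.

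**Figure D2:**
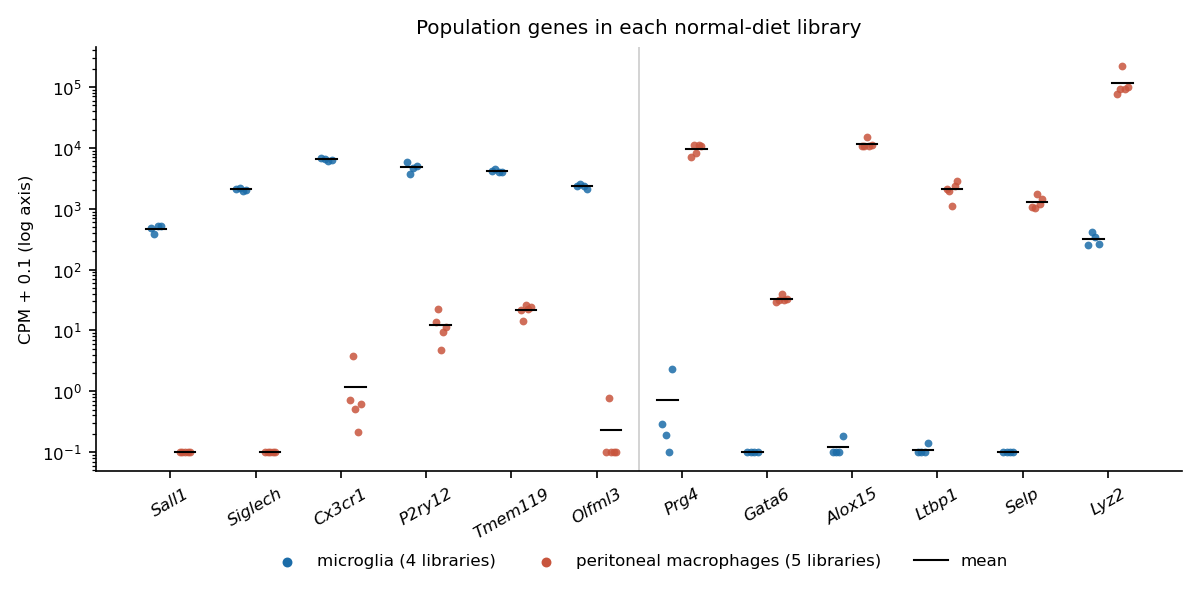
CPM of 12 identity genes in each normal-diet library (vertical axis, log scale, 0.1 added), microglia in blue on the left and peritoneal macrophages in red on the right of each gene, with a bar at the group mean. The 4 microglia libraries lie above all 5 peritoneal libraries for the first 6 genes and below them for the last 6.

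Markers of other macrophages found near these cells were called in both directions. Of the small peritoneal macrophage list, a short-lived population of the same cavity, 1 of 11 tested genes was higher and 5 were lower in microglia. The higher one was Itgax, the CD11c gene (11.6 ± 11.1 CPM in microglia, 0.477 ± 0.969 CPM in peritoneal macrophages), which was not called without peritoneal replicate 3. The summed level of the list was 35.6 to 107.4 CPM in microglia and 1454 to 3127 CPM in peritoneal macrophages. Nearly all of the peritoneal sum came from Retnla, a secreted resistin-like protein of alternatively activated macrophages, at 1233, 3194, 3285, 2450.5 and 1605 CPM there and 1 count in all microglia. Of the defining genes of that list, Ccr2 (7.63 ± 9.02 CPM in microglia, 26.6 ± 16.3 CPM in peritoneal macrophages) and Irf4 (7.34 ± 6.96 CPM in microglia, 36.4 ± 15.2 CPM in peritoneal macrophages) did not pass the test. Irf4 did pass without microglia replicate 3_17, alone or together with peritoneal replicate 3. It also passed by DESeq2, by limma voom and with the microglia libraries of a cohort summed. The lectin Clec10a averaged 0.498 ± 0.578 CPM in microglia and 43.1 ± 14.6 CPM in peritoneal macrophages. Of 14 genes of the macrophages at the borders of the brain, 1 was higher and 9 were lower in microglia. The higher one was Stab1, a scavenger receptor (427 ± 91.3 CPM in microglia, 48.3 ± 12.9 CPM in peritoneal macrophages). Mrc1, the mannose receptor that marks those border cells, stood at 4.6, 43.6, 26.9 and 19.6 CPM in microglia and at 23.4, 64.4, 14.4, 31.6 and 34.7 CPM in peritoneal macrophages. Replicate 1_6, the library with the most choroid plexus RNA, had the highest Mrc1 of the microglia, and the part of border macrophages in the microglia values was not tested. Pf4 (1.64 ± 0.72 CPM in microglia, 2892 ± 1719 CPM in peritoneal macrophages), a platelet chemokine also made by macrophages, and Cd36 (2.13 ± 2.48 CPM in microglia, 1076 ± 349 CPM in peritoneal macrophages), a fatty acid and scavenger receptor, had the largest differences of the list.

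Transcription factors were called in both directions. Among 45 tested lineage factors, 23 were higher and 9 lower in microglia, and 13 were not called. Over all tested genes 17.6% were higher and 19.9% lower, so the share of lower factors was near that of all genes. Spi1, which encodes PU.1, the factor that all macrophages need, was at 358 ± 59.3 CPM in microglia and 254 ± 120.5 CPM in peritoneal macrophages (log2 fold change 0.49 ± 0.41, edgeR adjusted p = 0.365, not called). Other macrophage factors were higher in microglia, with 625 ± 47.3 CPM in microglia against 107.8 ± 31.9 CPM in peritoneal macrophages for Irf8, 585 ± 67.3 CPM in microglia against 79 ± 18.8 CPM in peritoneal macrophages for Mef2c and 138 ± 15.4 CPM in microglia against 22.9 ± 6.2 CPM in peritoneal macrophages for Runx1. The clock-related repressors Bhlhe40 and Bhlhe41 ran in opposite directions. Bhlhe40 was at 0, 1.57, 6.17 and 0.244 CPM in microglia and 337, 256, 121, 322 and 412 CPM in peritoneal macrophages, and Bhlhe41 at 278, 205, 242 and 279.5 CPM in microglia and 1.42, 8.61, 2.46, 1.95 and 2.15 CPM in peritoneal macrophages, with no overlap for either. Besides Gata6, the factors lower in microglia included the retinoic acid receptors Rara (0.0232 ± 0.0464 CPM in microglia, 71.1 ± 24.7 CPM in peritoneal macrophages) and Rarb (0.948 ± 1.9 CPM in microglia, 42 ± 20.6 CPM in peritoneal macrophages), Tfec, a relative of Mitf (0.0232 ± 0.0464 CPM in microglia, 17.1 ± 4.03 CPM in peritoneal macrophages), and Runx3 (0.0203 ± 0.0406 CPM in microglia, 12.4 ± 3.88 CPM in peritoneal macrophages). Of the immediate early and Krüppel-like factors in the list, Egr1, Atf3, Klf2, Klf4, Klf6 and Nr4a1 were higher in microglia and are described with the isolation response.

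Genes shared by all macrophages were called in both directions. Of 20 pan-macrophage genes, 7 were higher in microglia, 5 lower and 8 not called. Csf1r, the receptor for the growth factors that keep both populations alive, was at 9209, 9206, 8797 and 7759 CPM in microglia and at 1983, 2125, 601, 2230.2 and 2298 CPM in peritoneal macrophages (log2 fold change 2.24 ± 0.35, edgeR adjusted p = 0.000408). Aif1, which encodes the microglial stain Iba1, averaged 313 ± 42.4 CPM in microglia and 17.9 ± 7.78 CPM in peritoneal macrophages. Adgre1, the F4/80 antigen used to sort peritoneal macrophages in many studies, averaged 369 ± 21.7 CPM in microglia and 2904 ± 1188 CPM in peritoneal macrophages, and Itgam, which encodes CD11b, 429 ± 29.6 CPM in microglia and 1125 ± 176 CPM in peritoneal macrophages. Apoe stood at 368, 738, 603 and 430 CPM in microglia and 5779, 16063, 22822, 10646 and 15283 CPM in peritoneal macrophages, a log2 fold change of -4.72 ± 0.45. Cd68, a lysosomal glycoprotein (800.5 ± 50.7 CPM in microglia, 1028 ± 532 CPM in peritoneal macrophages), the pan-leukocyte phosphatase Ptprc (574 ± 64.2 CPM in microglia, 450.3 ± 103.3 CPM in peritoneal macrophages), the lipopolysaccharide co-receptor Cd14 (467 ± 25 CPM in microglia, 554 ± 284 CPM in peritoneal macrophages) and the Fc receptor genes Fcer1g (773 ± 48.5 CPM in microglia, 887 ± 385 CPM in peritoneal macrophages) and Fcgr3 (1888 ± 128 CPM in microglia, 1950.3 ± 1043 CPM in peritoneal macrophages) were not called.

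**Figure D3:**
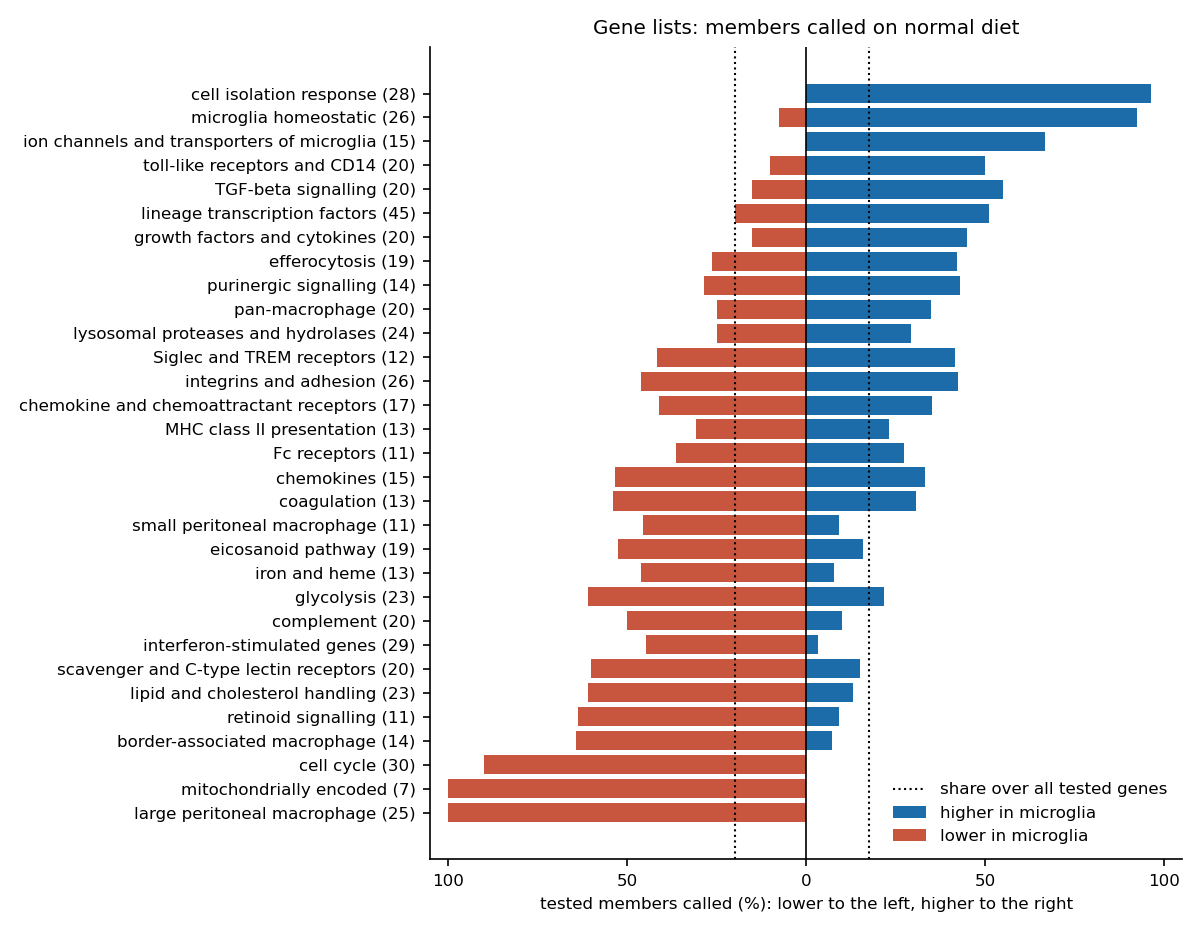
Percent of the tested members of each of 31 gene lists called higher in microglia (blue, to the right) or lower (red, to the left) on normal diet, with dotted lines at the percentages over all tested genes (17.6% and 19.9%). The homeostatic and isolation lists lie on the microglial side, and the large peritoneal and cell cycle lists on the peritoneal side.

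TGF-beta signalling genes were more often higher than lower in microglia. Of 20 tested genes, 11 were higher and 3 lower, the lower ones being the ligand Tgfb2, the latency protein Ltbp1 and the co-receptor Tgfbr3. The share of lower genes was near that of all tested genes. Tgfb2 was at 0.0578 ± 0.116 CPM in microglia and 542 ± 178 CPM in peritoneal macrophages, while Tgfb1 was at 20.4 ± 9.44 CPM in microglia and 5.4 ± 1.07 CPM in peritoneal macrophages and called higher. The type I receptor Tgfbr1 had 1895, 1452, 1647 and 1684 CPM in microglia and 21.4, 43.7, 16.1, 54.2 and 54.7 CPM in peritoneal macrophages (log2 fold change 5.46 ± 0.41, edgeR adjusted p = 2.06e-06). The feedback inhibitor Smad7, a target of the pathway, averaged 75.6 ± 9.32 CPM in microglia and 0.221 ± 0.242 CPM in peritoneal macrophages, and Itgb5, an integrin subunit that can release active TGF-beta, 494 ± 73.4 CPM in microglia and 0.183 ± 0.317 CPM in peritoneal macrophages. The signal carriers Smad3 (188 ± 38.6 CPM in microglia, 199.5 ± 109.97 CPM in peritoneal macrophages) and Smad4 (23.9 ± 6.81 CPM in microglia, 21.2 ± 4.43 CPM in peritoneal macrophages), and Nrros, which presents TGF-beta1 on microglia (315 ± 39.5 CPM in microglia, 324 ± 96.1 CPM in peritoneal macrophages), were not called.

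Of 14 nucleotide and adenosine signalling genes, 6 were higher and 4 lower in microglia. P2ry13, an ADP receptor beside P2ry12 in the genome, averaged 2122 ± 371 CPM in microglia and 2.19 ± 1.36 CPM in peritoneal macrophages. Adora3, an adenosine receptor, averaged 58.7 ± 11.3 CPM in microglia and 0.35 ± 0.58 CPM in peritoneal macrophages. The enzymes that degrade extracellular nucleotides split, with Entpd1 (CD39) at 1034 ± 97.4 CPM in microglia and 312 ± 27 CPM in peritoneal macrophages and Nt5e (CD73), which makes adenosine, at 2 counts in all microglia and 208 ± 106.9 CPM in peritoneal macrophages.

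The retinoid genes lay on the peritoneal side. Of 11 tested members, 1 was higher and 7 were lower in microglia. The higher one, the retinol dehydrogenase Rdh10 (17.8 ± 15.5 CPM in microglia, 5.35 ± 2.39 CPM in peritoneal macrophages), was not called without peritoneal replicate 1, 2, 3 or 4 or microglia replicate 1_5 or 3_17. Aldh1a2, which makes retinoic acid, had no microglia count and 45.9, 50.8, 54.4, 65.2 and 42.8 CPM in peritoneal macrophages (at least 1604-fold lower in microglia). The receptors Rara, Rarb and Rarg were all lower in microglia, with 0.0929, 0, 0 and 0 CPM of Rara in microglia and 65.4, 58.5, 50.5, 113.7 and 67.2 CPM in peritoneal macrophages. The partner receptors Rxra (33.9 ± 18.9 CPM in microglia, 46.7 ± 13.4 CPM in peritoneal macrophages) and Rxrb (28.6 ± 7.5 CPM in microglia, 15.2 ± 1.68 CPM in peritoneal macrophages) were not called, though Rxrb was called higher without microglia replicate 1_6. Dhrs3, which reduces retinaldehyde, averaged 383 ± 36.4 CPM in microglia and 879 ± 383 CPM in peritoneal macrophages, and was called lower except without peritoneal replicate 3.

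Complement genes that passed the test were mostly lower in microglia. The C1q genes of the classical pathway, C1qa (3503 ± 331 CPM in microglia, 3042 ± 1378 CPM in peritoneal macrophages), C1qb (4953 ± 825 CPM in microglia, 5859 ± 2839 CPM in peritoneal macrophages) and C1qc (3702 ± 709 CPM in microglia, 2090.4 ± 1122 CPM in peritoneal macrophages) were measured in every library and not called. The C1 protease gene C1ra was lower at 3.2 ± 2.59 CPM in microglia and 91.1 ± 18.6 CPM in peritoneal macrophages. So were C3 and C4b, with 0.292 ± 0.583 CPM in microglia against 126 ± 59.9 CPM in peritoneal macrophages for C3 and 5.48 ± 5.07 CPM in microglia against 3613 ± 1681 CPM in peritoneal macrophages for C4b, whose reads may be shared with its near copy C4a, which was not called. The largest differences were those of properdin, Cfp, which stabilises the alternative pathway convertase (1.47 ± 0.882 CPM in microglia, 6180.2 ± 2989 CPM in peritoneal macrophages), and of Vsig4, a C3b receptor with no microglia count and 380.4, 959.9, 2852, 856 and 548 CPM in peritoneal macrophages. In all, 2 of 20 tested genes were higher and 10 lower in microglia, the higher ones being the C5a receptor gene C5ar2 (63.4 ± 21.2 CPM in microglia, 3.33 ± 1.25 CPM in peritoneal macrophages) and Itgax. Of 13 coagulation genes, 4 were higher and 7 lower. F5, F7 and F10, which encode clotting factors, averaged 3.81 ± 1.86, 0 and 0 CPM in microglia and 1726 ± 482, 326 ± 128 and 829 ± 359 CPM in peritoneal macrophages, and the plasminogen activator inhibitor Serpinb2 0.0116 ± 0.0231 CPM in microglia and 2385 ± 344 CPM in peritoneal macrophages. F11r, the junctional adhesion molecule JAM-A, went the other way at 912 ± 123 CPM in microglia and 0.267 ± 0.343 CPM in peritoneal macrophages.

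Pattern recognition receptors separated by class. Of 20 toll-like receptor genes and their partners, 10 were higher and 2 lower in microglia. Tlr9, a sensor of unmethylated DNA (38.2 ± 19.2 CPM in microglia, 0.821 ± 1.18 CPM in peritoneal macrophages), Tlr12, a mouse sensor of profilin (41.8 ± 7.33 CPM in microglia, 0.0352 ± 0.0494 CPM in peritoneal macrophages), and Unc93b1, which carries such receptors to endosomes (1817 ± 111.6 CPM in microglia, 858 ± 172 CPM in peritoneal macrophages), were among the higher ones. Tlr8, a sensor of RNA in humans, had no microglia count and 54.7, 92.9, 17.8, 73.2 and 79.8 CPM in peritoneal macrophages, and Lbp, which delivers lipopolysaccharide, averaged 1.28 ± 2.54 CPM in microglia and 129 ± 45.2 CPM in peritoneal macrophages. Tlr4 was not called (117.3 ± 19.2 CPM in microglia, 79.4 ± 39.2 CPM in peritoneal macrophages). Scavenger and C-type lectin receptors lay mostly on the other side, with 3 of 20 higher and 12 lower in microglia. Marco, which binds bacteria and particles, had no microglia count and 198, 418, 677, 227 and 102.6 CPM in peritoneal macrophages. Replicate 3 was the highest peritoneal library for Marco, as it was for Lyz2, Vsig4 and Cfp. The sensors of mycobacterial and fungal glycolipids Clec4e (0 CPM in microglia, 373 ± 109.1 CPM in peritoneal macrophages) and Clec4d (0.0231 ± 0.0462 CPM in microglia, 664 ± 335 CPM in peritoneal macrophages) followed the same direction.

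The adaptor gene Tyrobp (DAP12) and the Siglec, TREM and Fc receptor genes were called in both directions. Tyrobp itself averaged 833 ± 90.4 CPM in microglia and 2749.9 ± 1198 CPM in peritoneal macrophages (log2 fold change -1.72 ± 0.30), and Trem2, a lipid-sensing receptor that pairs with it, 1174 ± 124 CPM in microglia and 55.6 ± 35 CPM in peritoneal macrophages (4.40 ± 0.40). Of 12 Siglec and TREM genes, 5 were higher and 5 lower in microglia, Siglecf (31.6 ± 24.9 CPM in microglia, 0.872 ± 0.63 CPM in peritoneal macrophages) and Siglec1 (0.468 ± 0.879 CPM in microglia, 21.4 ± 11.6 CPM in peritoneal macrophages), both sialic acid receptors, in opposite directions. Siglecf had no count in microglia replicate 3_17 and was not called with limma voom or with a replicate block. Of 11 Fc receptor genes, 3 were higher and 4 lower. Fcrls, a receptor-like gene used as a microglial marker, averaged 2100.1 ± 211 CPM in microglia and 12.5 ± 5.86 CPM in peritoneal macrophages, the high-affinity IgG receptor Fcgr1 279 ± 19.4 CPM in microglia and 54.7 ± 26.1 CPM in peritoneal macrophages, and Fcgr4 14.6 ± 5.95 CPM in microglia and 90.2 ± 50 CPM in peritoneal macrophages.

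MHC class II genes were unequal among the peritoneal libraries. H2-Aa, an antigen presenting chain, was at 20, 60.1, 7.29 and 42.6 CPM in microglia and 77.5, 627, 213, 115.3 and 146 CPM in peritoneal macrophages, and Cd74, the invariant chain, at 81.8, 213, 74.4 and 92.5 CPM in microglia and 237, 1522, 334, 328 and 431 CPM in peritoneal macrophages. No microglia value reached a peritoneal value for either gene. Peritoneal replicate 2, the library with 875 CPM of B cell genes, was the highest for both. Without it, the log2 fold changes were -2.09 for H2-Aa and -1.53 for Cd74. Both genes passed the test with all libraries (log2 fold changes -2.86 ± 0.74 and -2.31 ± 0.59), as did the costimulatory receptor Cd40 (1.15 ± 1.32 CPM in microglia, 82.8 ± 42.4 CPM in peritoneal macrophages). In all, 3 of 13 genes were higher and 4 lower in microglia, and the part of B cells in the peritoneal values was not tested.

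Genes for the uptake of dying cells were called in both directions. Of 19 efferocytosis genes, 8 were higher and 5 lower in microglia. Timd4, a phosphatidylserine receptor, had no microglia count and 219, 430.3, 781, 331 and 272 CPM in peritoneal macrophages, whereas Havcr2 (TIM-3), of the same family, averaged 324 ± 87.4 CPM in microglia and 0.0715 ± 0.103 CPM in peritoneal macrophages. Mertk, a receptor kinase that binds phosphatidylserine through Gas6 and Pros1, averaged 756 ± 60.3 CPM in microglia and 127 ± 26.1 CPM in peritoneal macrophages. Integrins and adhesion genes were nearly even, with 11 of 26 higher and 12 lower. Genes of classical monocytes summed to 13.6 to 47.1 CPM in microglia and 157 to 276 CPM in peritoneal macrophages.

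Chemokine genes fell into separate sets. Of 15 tested chemokines, 5 were higher and 8 lower in microglia. The higher ones were led by Ccl4 (860.4 ± 89.8 CPM in microglia, 0.741 ± 0.604 CPM in peritoneal macrophages), Ccl12 (325 ± 30.6 CPM in microglia, 0.28 ± 0.626 CPM in peritoneal macrophages) and Ccl3 (1235 ± 95.4 CPM in microglia, 3.7 ± 2.62 CPM in peritoneal macrophages), attractants of monocytes and T cells. The lower ones were led by Cxcl13 and Pf4, described above. Ccl3 also belongs to the isolation list described below. Without the scaling, the chemokine genes summed to 3373 to 3808 CPM in these microglia and to 955 to 4078 CPM in fasted microglia. Of 17 chemoattractant receptors, 6 were higher and 7 lower. The formyl peptide receptor Fpr1 (0.636 ± 1.27 CPM in microglia, 105.2 ± 59.4 CPM in peritoneal macrophages), Ackr3, a scavenger of Cxcl12 (0.835 ± 1.02 CPM in microglia, 92.4 ± 21 CPM in peritoneal macrophages), and Ccr1, a receptor of Ccl3 (27.4 ± 10.4 CPM in microglia, 612 ± 167 CPM in peritoneal macrophages), were lower in microglia.

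Channels and transporters known from microglia were higher there in 10 of 15 cases, and the other 5 were not called. Slco2b1, an organic anion transporter, averaged 1445 ± 77.5 CPM in microglia and 0.0283 ± 0.0389 CPM in peritoneal macrophages, and the fructose transporter Slc2a5 842 ± 92.5 CPM in microglia and 0.964 ± 1.26 CPM in peritoneal macrophages. The potassium channel Kcnj2 averaged 20.7 ± 11 CPM in microglia and 1.26 ± 0.946 CPM in peritoneal macrophages.

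Eicosanoid and lipid genes were mainly peritoneal. Of 19 eicosanoid genes, 3 were higher and 10 lower in microglia. After Alox15, the prostacyclin synthase Ptgis stood out, with no microglia count and 567, 445, 1226, 641 and 559 CPM in peritoneal macrophages (at least 20021-fold lower in microglia), beside the prostacyclin receptor Ptgir (0 CPM in microglia, 51.5 ± 16.9 CPM in peritoneal macrophages) and the prostaglandin E synthase Ptges (0.0324 ± 0.0404 CPM in microglia, 26.5 ± 5.03 CPM in peritoneal macrophages). Hpgds, which makes prostaglandin D2, and Hpgd, which inactivates prostaglandins, were higher in microglia (682 ± 54.5 CPM in microglia, 1.84 ± 1.38 CPM in peritoneal macrophages and 304 ± 85.5 CPM in microglia against 0.591 ± 0.56 CPM in peritoneal macrophages). The upstream cyclooxygenase Ptgs1 was not called (780.4 ± 111.4 CPM in microglia, 711 ± 84.4 CPM in peritoneal macrophages). Of 23 lipid genes, 3 were higher and 14 lower. The fatty acid binding protein Fabp4 had no microglia count and 336, 336, 718, 648 and 513 CPM in peritoneal macrophages (at least 15426-fold lower in microglia). Lipoprotein lipase, Lpl, averaged 27.8 ± 13.2 CPM in microglia and 918 ± 405 CPM in peritoneal macrophages. The cholesterol exporters Abca1 (389 ± 37.8 CPM in microglia, 188 ± 102.01 CPM in peritoneal macrophages) and Abcg1 (174 ± 23.2 CPM in microglia, 73.1 ± 21.2 CPM in peritoneal macrophages) were called higher in microglia. Abca1 was not called without peritoneal replicate 3 or 4 or microglia replicate 3_18.

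Iron, lysosomal and glycolytic genes followed. The iron exporter Slc40a1 (ferroportin) averaged 223 ± 50.1 CPM in microglia and 0.238 ± 0.445 CPM in peritoneal macrophages, the 1 iron gene of 13 that was higher, while 6 were lower, among them the hemoglobin receptor Cd163 (1.35 ± 2.7 CPM in microglia, 51.4 ± 10.1 CPM in peritoneal macrophages) and biliverdin reductase Blvrb (28.4 ± 6.48 CPM in microglia, 245 ± 117.7 CPM in peritoneal macrophages). Of 24 lysosomal genes, 7 were higher and 6 lower, with Cst3 at 19840.5 ± 1269 CPM in microglia and 2409 ± 1081 CPM in peritoneal macrophages and the lysozymes lower in microglia. Of 23 glycolysis genes, 5 were higher and 14 lower. The lactate dehydrogenase subunits ran in opposite directions, with 242, 254, 196 and 163 CPM of Ldha in microglia against 1896, 1263, 3336, 1328 and 1242 CPM in peritoneal macrophages, and 380.3, 432, 419 and 405 CPM of Ldhb in microglia against 13.2, 16, 39.2, 19.6 and 26.9 CPM in peritoneal macrophages. Neither gene overlapped between the groups. All 7 tested genes of the mitochondrial genome were lower in microglia, mt-Co1, a subunit of cytochrome oxidase, at 1548 ± 332 CPM in microglia and 6431 ± 2427 CPM in peritoneal macrophages.

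Growth factors and cytokines were 9 higher and 3 lower in microglia among 20 tested. Without microglia replicate 1_6, 5 were lower. Pdgfb, a mitogen for pericytes, averaged 124 ± 28.5 CPM in microglia and 0.652 ± 0.296 CPM in peritoneal macrophages, the inflammatory cytokines Tnf 162 ± 58.6 CPM in microglia and 3.1 ± 3.33 CPM in peritoneal macrophages and Il1a 636 ± 115.6 CPM in microglia and 16.6 ± 4.39 CPM in peritoneal macrophages, all higher in microglia. Grn, the lysosomal progranulin, was lower at 1753 ± 223 CPM in microglia and 4268 ± 1904 CPM in peritoneal macrophages, and was not called without peritoneal replicate 3. Without the scaling, Il1a averaged 747 CPM in normal-diet and 226 CPM in fasted microglia, and Grn 2051 and 3441 CPM.

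Cell cycle genes were lower in microglia. Of 30 tested members, 27 were lower in microglia and Ccne2, Mcm3 and Pcna were not called, with a median log2 fold change of -4.79. Ube2c, which drives exit from mitosis, was at 0, 0, 0 and 0.609 CPM in microglia and 55.3, 43.7, 94.6, 21.3 and 18.4 CPM in peritoneal macrophages, and Rrm2, which makes deoxynucleotides, at 1.16, 0.139, 0.0417 and 0 CPM in microglia and 80.6, 60.7, 65.8, 33 and 29.3 CPM in peritoneal macrophages. Plk1, a mitotic kinase, had no microglia count and 21.3 ± 12.8 CPM in peritoneal macrophages. The D-type cyclin Ccnd3 averaged 78.1 ± 25.3 CPM in microglia and 336 ± 71.7 CPM in peritoneal macrophages. The replication clamp Pcna averaged 127 ± 8.85 CPM in microglia and 111.8 ± 59.2 CPM in peritoneal macrophages. In fasted mice, 8 of 23 tested members were lower in microglia, against 13.4% of the 11084 genes tested in that comparison, where libraries held 400 cells and the microglia libraries 9125 to 12738 genes with at least 10 counts.

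The count of interferon-stimulated genes called depended on a single peritoneal library. Of 29 tested, 1 was higher and 13 were lower in microglia, and without peritoneal replicate 2 these counts became 4 and 7. The higher one was the chemokine Cxcl10 (7.65 ± 5.69 CPM in microglia, 0.78 ± 1.01 CPM in peritoneal macrophages), with an edgeR adjusted p of 0.0476 that did not pass when peritoneal replicate 1, 3, 4 or 5 or microglia replicate 1_5 or 1_6 was left out. Irf7, the factor that amplifies interferon production, was at 13.1, 9.43, 0.958 and 10.3 CPM in microglia and 44.3, 314, 97.4, 47.6 and 44 CPM in peritoneal macrophages, with replicate 2 at the top. Ifitm3, which blocks virus entry, was at 7.11, 12.4, 12.1 and 7.23 CPM in microglia and at 825, 1899, 2318, 1076 and 909 CPM in peritoneal macrophages (log2 fold change -7.18 ± 0.48), and Ifitm6 averaged 1.67 ± 1.93 CPM in microglia and 434 ± 198 CPM in peritoneal macrophages. Replicate 2 was also the highest in MHC class II and B cell genes, and the part of that library's state in this list was not tested beyond leaving it out.

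Genes known to be induced when cells are taken from tissue were higher in microglia almost throughout. Of 28 tested, 27 were higher in microglia, with a median log2 fold change of 4.66. Many of these genes are switched on through serum response and cyclic AMP response elements, the CArG box and the CRE. The 250 bases before the RefSeq start (GRCm38.p6) are shown for 5 of them, because they carry a CRE, a CArG box or a CRE core. Capitals mark the CRE (TGACGTCA), the CArG box and the CRE core (TGACG), on either strand.
Btg2: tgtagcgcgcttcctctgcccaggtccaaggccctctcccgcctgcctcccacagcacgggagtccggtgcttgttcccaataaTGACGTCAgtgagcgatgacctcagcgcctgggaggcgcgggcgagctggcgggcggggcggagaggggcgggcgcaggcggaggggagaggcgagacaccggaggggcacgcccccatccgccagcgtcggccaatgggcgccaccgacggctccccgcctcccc
Dusp1: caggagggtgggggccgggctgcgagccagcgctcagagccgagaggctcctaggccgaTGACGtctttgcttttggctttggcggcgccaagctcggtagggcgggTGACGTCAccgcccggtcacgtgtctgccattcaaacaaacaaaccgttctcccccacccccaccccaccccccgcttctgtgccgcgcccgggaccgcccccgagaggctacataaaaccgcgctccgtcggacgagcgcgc
Zfp36: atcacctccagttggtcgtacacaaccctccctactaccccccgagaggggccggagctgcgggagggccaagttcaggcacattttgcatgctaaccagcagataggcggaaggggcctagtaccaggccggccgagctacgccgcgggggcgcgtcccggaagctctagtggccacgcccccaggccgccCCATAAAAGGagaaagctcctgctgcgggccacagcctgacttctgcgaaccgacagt
Fos: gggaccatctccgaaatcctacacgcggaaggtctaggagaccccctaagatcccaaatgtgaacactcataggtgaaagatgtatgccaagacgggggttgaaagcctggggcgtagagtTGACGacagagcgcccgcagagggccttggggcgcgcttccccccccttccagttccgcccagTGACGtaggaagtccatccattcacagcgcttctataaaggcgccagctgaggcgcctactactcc
Junb: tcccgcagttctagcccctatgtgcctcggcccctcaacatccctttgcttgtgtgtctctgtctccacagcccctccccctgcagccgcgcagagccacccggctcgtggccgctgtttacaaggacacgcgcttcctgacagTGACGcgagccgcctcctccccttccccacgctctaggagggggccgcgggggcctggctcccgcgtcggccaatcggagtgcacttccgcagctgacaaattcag
The windows lie at chr1:134079156-134079405, minus strand for Btg2, chr17:26508473-26508722, minus strand for Dusp1, chr7:28379229-28379478, minus strand for Zfp36, chr12:85473640-85473889, plus strand for Fos and chr8:84978749-84978998, minus strand for Junb.
A CRE was found in 6.9% of the 29 windows of 23 matched isolation genes and in 1.55% of all 32851 windows, a CRE core in 44.8% and 17.8%, and a CArG box in 17.2% and 1.47%. Several windows can belong to 1 gene, and by gene a CRE was found in 2 of 23, a CRE core in 11 of 23 and a CArG box in 2 of 23 (Egr2 and Zfp36). Of all 27025 genes with a window, 478 had a CRE, 5347 a CRE core and 439 a CArG box. The CRE holds the CRE core. An AP-1 site (TGANTCA) was found in 0 of the 29 windows and in 6.75% of all windows. In the 21 windows of 16 matched homeostatic genes, a PU.1 core (GAGGAA) was found in 28.6%, against 23.3% of all windows, and in the 22 windows of 18 large peritoneal genes a GATA motif (AGATAA) was found in 9.09%, against 9.99% of all.

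The immediate early transcription factors of the list were high in every microglia library. Fos (chromosome 12, 85473890 to 85477273, plus strand) stood at 13373, 14163, 12175 and 13351 CPM in microglia and at 18.3, 17.6, 36.5, 31.3 and 151 CPM in peritoneal macrophages (log2 fold change 8.03 ± 0.75, edgeR adjusted p = 1.06e-05). Egr1 stood at 6533, 6924, 6437 and 6552 CPM in microglia and at 16.6, 16.6, 26.6, 13.9 and 57.8 CPM in peritoneal macrophages (7.97 ± 0.51, edgeR adjusted p = 7.22e-07). Peritoneal replicate 5 was the highest of its group for both genes and still far below every microglia library, and without it the log2 fold change of Fos was 9.0. Feedback genes of the same response moved with them, with 8262 ± 362 CPM in microglia against 435 ± 186 CPM in peritoneal macrophages for the MAP kinase phosphatase Dusp1, 3739.7 ± 275 CPM in microglia against 144 ± 86.7 CPM in peritoneal macrophages for the mRNA-destabilising protein Zfp36, 4854 ± 554 CPM in microglia against 193 ± 34.9 CPM in peritoneal macrophages for the growth-arrest gene Btg2 and 4249.7 ± 317 CPM in microglia against 236 ± 65.1 CPM in peritoneal macrophages for the AP-1 subunit Junb. The heat shock genes Hspa1a (935 ± 189.5 CPM in microglia, 19.8 ± 31 CPM in peritoneal macrophages) and Dnajb1 (1352 ± 178 CPM in microglia, 57.4 ± 16.7 CPM in peritoneal macrophages) were likewise higher, Hspa1a with a near-identical copy in Hspa1b. Nr4a2 was the member not called (0.329 ± 0.5 CPM in microglia, 0.797 ± 0.666 CPM in peritoneal macrophages). The labels used here give no times or temperatures of isolation, and the part of handling was not tested.

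**Figure D4:**
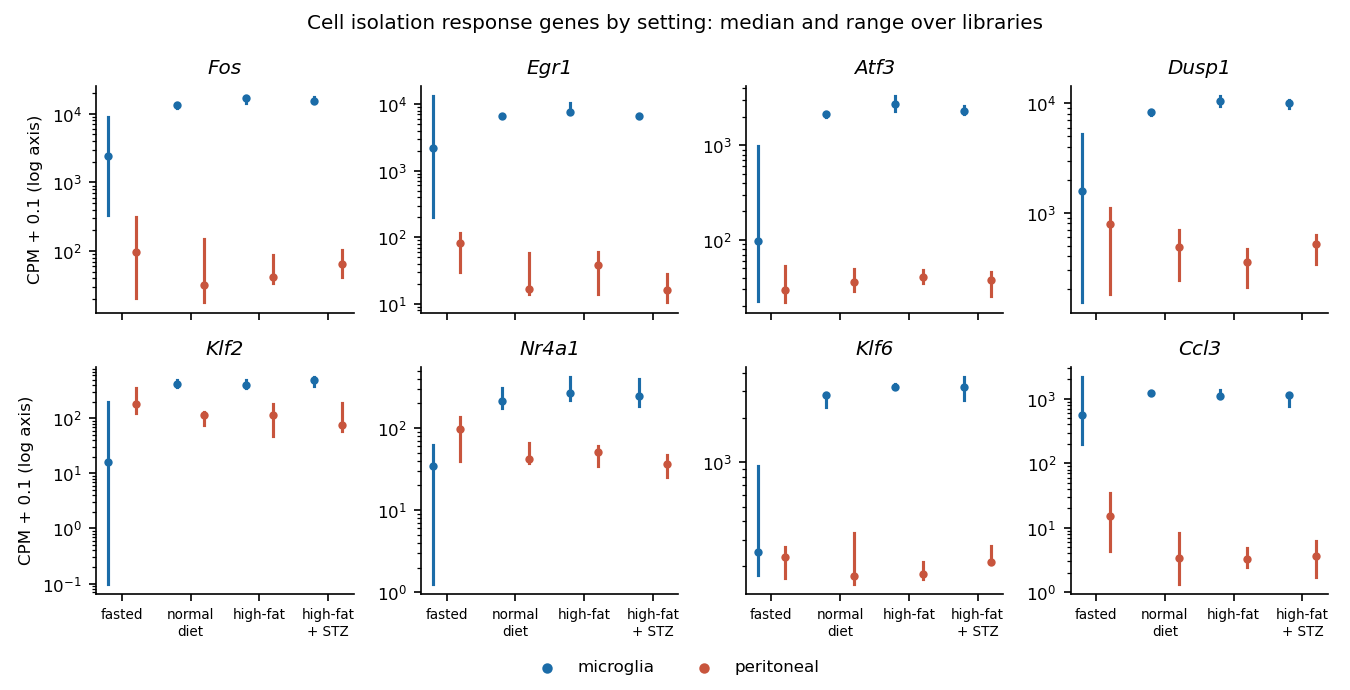
CPM of 8 isolation response genes in 4 settings (vertical axis, log scale), with the median as a point and the range over libraries as a line, microglia in blue on the left and peritoneal macrophages in red on the right of each pair, each setting scaled by itself. On normal diet, high-fat diet and high-fat diet with STZ the microglia lie above the peritoneal macrophages for all 8 genes, and in fasted mice Klf2 and Nr4a1 lie below.

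Most of the normal-diet differences had the same sign in the other settings, which use libraries of their own. The high-fat diet and STZ libraries have the same starting cell numbers as those of normal diet and come from the same cohorts, apart from 1 STZ microglia library of cohort 7_HFD, so they share its confounding of population, cohort and input. On high-fat diet, 2770 genes were called higher (20.8% of 13294 tested) and 2483 lower (18.7%) in microglia, and with STZ 2370 (18% of 13172) and 2604 (19.8%). Of the 2354 genes higher in microglia on normal diet, 1931 (82%, or 69.7% of the high-fat diet list) were called higher on high-fat diet and 1785 (75.8%, or 75.3%) with STZ. Of the 2664 lower genes, 1939 (72.8%, or 78.1%) and 1990 (74.7%, or 76.4%) were called lower there. Between 99.3% and 99.7% of the normal-diet genes tested in these settings had the same sign there. In fasted mice, 1187 genes were called higher (10.7% of 11084 tested) and 1489 lower (13.4%). They included 962 of the higher genes of normal diet (40.9%, or 81% of the fasted list) and 1261 of the lower ones (47.3%, or 84.7%). Of the normal-diet genes tested there, 92% of the higher and 97.6% of the lower had the same sign. The identity lists had like counts, with 24 of 26 homeostatic genes higher and 24 of 25 large peritoneal genes lower in fasted mice. The same counts were 24 and 24 on high-fat diet and 24 and 23 with STZ.

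The genes called in opposite directions were Klf2, Nr4a1 and the predicted gene Gm20735, all higher in microglia on normal diet and lower in fasted mice. Klf2, a Krüppel-like factor induced by fluid flow in other cells, averaged 425 ± 61.9 CPM in microglia and 103.2 ± 24.2 CPM in peritoneal macrophages on normal diet, and 53.7 ± 71.9 CPM in microglia and 220.4 ± 90 CPM in peritoneal macrophages in fasted mice (SD, n = 8 each). Its log2 fold changes were 2.04 ± 0.23 on normal diet, -3.33 ± 1.17 in fasted mice, 1.86 on high-fat diet and 2.25 with STZ. Nr4a1, an immediate early nuclear receptor, averaged 226 ± 54.9 CPM in microglia and 45.6 ± 11.8 CPM in peritoneal macrophages on normal diet and 33.8 ± 21.1 CPM in microglia and 94.3 ± 32.1 CPM in peritoneal macrophages in fasted mice, with log2 fold changes of 2.31 ± 0.25 and -1.67 ± 0.50. Of 25 isolation genes tested in fasted mice, 15 were higher and 2 lower in microglia, whereas 27 of 28 were higher on high-fat diet and 27 of 28 with STZ. The fasted microglia varied widely in these genes, with Egr1 at 3470 ± 4314 CPM in fasted microglia and 71.4 ± 31.1 CPM in fasted peritoneal macrophages.

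**Figure D5:**
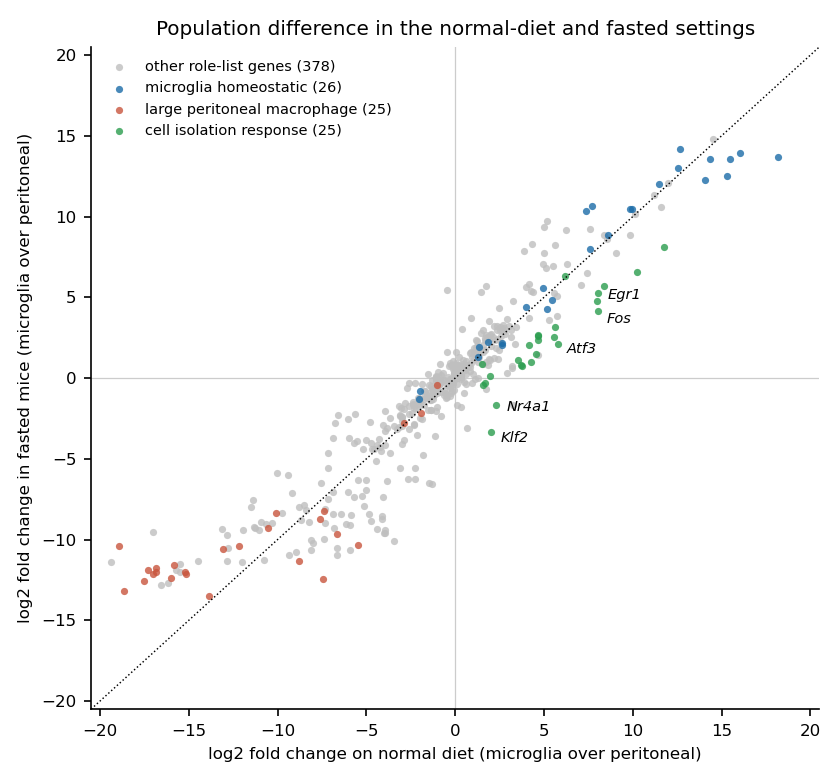
Log2 fold change of microglia over peritoneal macrophages on normal diet (horizontal axis) and in fasted mice (vertical axis) for the listed genes tested in both, with the homeostatic, large peritoneal and isolation lists in color and the diagonal dashed. Klf2 and Nr4a1 lie at positive values on normal diet (2.04 and 2.31) and negative values in fasted mice (-3.33 and -1.67).

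The difference between the settings was tested itself, as the population difference on normal diet minus that in fasted mice, in a fit over both. edgeR called 61 of 15355 genes above 0 (0.397%) and 23 below (0.15%), and 1656 genes had an unadjusted p below 0.05. Without microglia replicate 1_5 the counts were 36 and 8, without 1_6 40 and 14, without 3_17 47 and 10, and without 3_18 45 and 10. Without peritoneal replicate 1 they were 37 and 23, and without 2 they were 40 and 18. Diet, cohort and number of starting cells (400 in fasted mice) change together between these settings and cannot be told apart. Of the isolation genes, 12 of 28 were called above 0, and all 28 differences were positive. Leaving out a library gave 6 (without microglia replicate 1_5 or peritoneal replicate 1) to 14 isolation genes (without peritoneal replicate 5), and DESeq2 called 19. In the joint scaling of that fit, Nr4a1 averaged 249 ± 60 CPM in microglia and 45.7 ± 9.9 CPM in peritoneal macrophages on normal diet, and 32.9 ± 20.7 CPM in microglia and 90.8 ± 30.9 CPM in peritoneal macrophages in fasted mice. The difference was 4.11 ± 0.66 on the log2 scale (edgeR adjusted p = 0.00203). Klf6, a relative of Klf2, averaged 3032 ± 296 CPM in microglia and 202 ± 64 CPM in peritoneal macrophages on normal diet and 455 ± 344 CPM in microglia and 217 ± 35.4 CPM in peritoneal macrophages in fasted mice, a difference of 3.15 ± 0.46 (edgeR adjusted p = 0.000769). The stress factor Atf3 differed by 3.80 ± 0.78 and Egr1 by 3.31 ± 0.72. Atf3 was not called without peritoneal replicate 1 or 3 or microglia replicate 1_5, and Egr1 was not called when any normal-diet library but peritoneal replicate 5 was left out. Klf2 itself did not pass the threshold in that test (edgeR adjusted p = 0.0925, difference 5.51 ± 1.40). Kdm6b, a histone demethylase induced in activated macrophages, averaged 345 ± 10.8 CPM in microglia and 3.18 ± 0.818 CPM in peritoneal macrophages on normal diet and 62.8 ± 54.6 CPM in microglia and 7.38 ± 2.48 CPM in peritoneal macrophages in fasted mice. For Klf6 the microglia means of the settings were further apart than the peritoneal means.

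Genes outside the isolation list were called as well. S100a8, a neutrophil gene, averaged 54.2 ± 40.7 CPM in microglia and 7.9 ± 2.58 CPM in peritoneal macrophages on normal diet, and 0 CPM in microglia and 9.83 ± 2.84 CPM in peritoneal macrophages in fasted mice, beside a neutrophil marker sum of 7.86 to 368 CPM in the normal-diet microglia. Anxa1 (6.97 ± 4.9 CPM in microglia and 639 ± 241 CPM in peritoneal macrophages, against 0.223 ± 0.237 CPM in microglia and 438 ± 60.5 CPM in peritoneal macrophages in fasted mice), which resolves inflammation, and Hip1 (12.1 ± 9.28 CPM in microglia and 111.6 ± 36.8 CPM in peritoneal macrophages, against 0.278 ± 0.417 CPM in microglia and 107.4 ± 25.4 CPM in peritoneal macrophages in fasted mice), an endocytic adaptor, had microglia values near 0 in fasted mice. The difference of Anxa1 was not called when any normal-diet library but microglia replicate 3_18 was left out. Among the differences below 0, Ccnd1, cyclin D1, averaged 56.7 ± 14.6 CPM in microglia and 322 ± 79.2 CPM in peritoneal macrophages on normal diet and 117.8 ± 45.5 CPM in microglia and 146 ± 36.6 CPM in peritoneal macrophages in fasted mice (difference -2.22 ± 0.42, edgeR adjusted p = 0.00937), so that it was lower in microglia on normal diet and not called in fasted mice. Retnla was at 0.0127 ± 0.0254 CPM in microglia and 2351 ± 865 CPM in peritoneal macrophages on normal diet and 1.56 ± 1.53 CPM in microglia and 1025 ± 379.6 CPM in peritoneal macrophages in fasted mice. The lipase gene Liph (97.6 ± 7.6 CPM in microglia and 0.926 ± 0.445 CPM in peritoneal macrophages, against 79.5 ± 26 CPM in microglia and 0.00683 ± 0.0193 CPM in peritoneal macrophages in fasted mice) and the calcium-dependent factor Nfatc2 (90.5 ± 18.4 CPM in microglia and 1.04 ± 0.867 CPM in peritoneal macrophages, against 89.5 ± 58.8 CPM in microglia and 0.0567 ± 0.0419 CPM in peritoneal macrophages in fasted mice) were higher in microglia in both settings. The difference of Nfatc2 was not called without peritoneal replicate 2 or 5 or any 1 microglia library. None of the 26 homeostatic or 25 large peritoneal genes was called by edgeR in that test. At an unadjusted p below 0.05, 8 homeostatic genes (3 above and 5 below 0) and 13 large peritoneal genes (3 above and 10 below 0) differed, and DESeq2 called 2 and 9.

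Transcript length moved with the fold change. In 5 bins of exon length with like numbers of the genes tested on normal diet, the median log2 fold change was -0.61 for the shortest, then -0.27, -0.07 and 0.07, and 0.31 for the longest. In fasted mice, where both populations started from 400 cells, the bins gave -0.47, -0.14, -0.06, 0.05 and 0.16. The part of length in single genes was not tested.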

How the data were processed

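Per the labels' protocols, cells were sorted by flow cytometry and RNA was made into libraries by Smart-seq2. Per the submitters' processing notes, the authors used Trimmomatic 0.36, STAR 2.5.1a, featureCounts and mm10, and the deposited values are raw counts per gene. The annotation release, strand setting and treatment of reads that map to several genes were not given in the sources used here, and 47 of the 205 genes named overlap another annotated gene, whose reads may be mixed with theirs. Of 50686 gene IDs, 50462 matched GENCODE M21 once version suffixes were removed, and symbols, exon lengths and coordinates come from it.

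The counts were tested with edgeR 4.0.16 (R 4.3.3) by quasi-likelihood with TMM scaling and filterByExpr, and adjusted over all tested genes. A population with no count was given a floor of 3 counts over the group, and intervals on counts are exact Poisson at 95% and, like the floors, cover counting error only. The fit of fasted mice had the cohort as a term, and so did the fit of the difference between settings for its fasted libraries. DESeq2 1.42.0, limma 3.58.1 with voom, RLE size factors, no filter, thinned libraries, summed cohorts, a replicate block and left-out libraries served as alternatives. On data simulated from the normal-diet libraries (12934 genes), 21.9%, 53.1% and 71.7% of genes changed by 1.5, 2 and 3 log2 units were called, with 4 false calls in 12746 unchanged genes. For the difference between settings (15118 genes) the shares were 0%, 7.4% and 33.8%, with 0 false calls in 14920. In these simulations few genes were changed and all libraries shared the same mean profile otherwise. No cohort effect or broad difference in composition was built in. The numbers of false calls therefore do not cover cohort or scaling effects in the real libraries.

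The comparisons, gene lists and named genes were chosen with earlier results of these data known, so no list is independent evidence. By the rule for names, these were the 10 largest differences in each direction at 100 CPM or more without overlap, up to 4 called genes per list at 20 CPM or more, the most abundant member of a list, all members of the homeostatic, large peritoneal, pan-macrophage and lineage factor lists, the 5 highest per exon length, and up to 8 differences between settings in each direction at 50 CPM or more. Other genes named, among them Btg2, Dusp1, Zfp36, Junb, Hpgds, Abca1, Rdh10 and Cxcl10, were chosen after their values were seen, and some genes covered by the rule are not reported here. The promoter windows were credited to RefSeq (GRCm38.p6).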

Additional observations from a re-analysis of the deposited data

Results flagged for a closer look

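A library was named here when its distance from the nearest other library of its group exceeded the 95% critical value of Dixon's ratio. In all, 360 sets of 4 microglia or 5 peritoneal libraries were examined and 83 such values were found. The critical value would flag about 1 in 20 sets of independent, normally distributed values. These sets are not of that kind. A set with counts in a single library is always flagged, as for C3 in microglia, and genes of a library can vary together. The number found can therefore not be set against that share. Of the 83 values, 35 belonged to peritoneal replicate 3, 16 to peritoneal replicate 2, 12 to microglia replicate 1_6, and peritoneal replicate 1 had 0.

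Peritoneal replicate 3, in which the 50 most abundant genes took the largest share of counts, was high in some abundant transcripts of peritoneal macrophages. Its values were 219431 CPM for Lyz2, 5938 for Pf4, 11527 for Cfp, 2852 for Vsig4, 15140.1 for Alox15, 26289.6 for Actb and 10636 CPM for mt-Co1. Lysosomal and complement genes followed, with 4289 CPM of Cst3, 5191 of Ctss, 1975 of Cd68, 7644 of Grn, 5421 of C1qa, 10833 of C1qb and 117.01 CPM of Trem2. So did receptors and their adaptors, with 4845 CPM of Tyrobp, 1560.5 of Fcer1g, 3776 of Fcgr3, 562 of Clec4e, 2939 of Selplg, 2919 of Icam2, 158 of Cd40 and 492 CPM of Nrros. Among enzymes and secreted proteins it had 1122 CPM of Anxa1, 455 of Blvrb, 1554 of Dhrs3, 1464 of F10, 350 of Ltc4s, 1226 of Ptgis and 4.21 CPM of Hpgds. It was also highest for Klf6 (332 CPM), Nr4a1 (66.5 CPM), Tnf (8.93 CPM) and Slc2a5 (3.08 CPM). It was the lowest of its group for the surface receptors Adgre1 (818 CPM, against 3229 to 3810 CPM in the others) and Csf1r (601 CPM, against 1983 to 2298 CPM). Its sum over the large peritoneal macrophage list, in CPM without the scaling, was also the lowest (44104 CPM, against 64034 to 79308 CPM in the others).

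Peritoneal replicate 2 stood apart in genes of B cells and antigen presentation, with 323 CPM of Ighm, 91.6 of Ms4a1, 13.2 of Pax5, 1522 of Cd74 and 627 CPM of H2-Aa. It was also highest for Irf7 (314 CPM), Cd36 (1669 CPM), Tgfb1 (7.29 CPM), Bhlhe41 (8.61 CPM), Cx3cr1 (3.75 CPM), Tlr9 (2.87 CPM), Ccl12 (1.4 CPM), Slc40a1 (1.03 CPM), Itgax (2.21 CPM) and Olfml3 (0.663 CPM), and lowest for Serpinb2 (1795 CPM). Peritoneal replicate 5 was highest for Fos (151 CPM), Egr1 (57.8 CPM), Hspa1a (75.2 CPM) and Hspa1b (3.27 CPM) and lowest for Liph (0.148 CPM). Peritoneal replicate 4 was highest for Rara (113.7 CPM) and Itgb5 (0.745 CPM).

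Microglia replicate 1_6 was highest for Ttr (626 CPM), Cd74 (213 CPM), Spint1 (294 CPM), Hdc (5.73 CPM), Cd163 (5.41 CPM), Lbp (5.09 CPM), Rarb (3.79 CPM), Fpr1 (2.54 CPM), Fn1 (1.43 CPM), Tgfbr3 (0.971 CPM) and Tgfb2 (0.231 CPM), and lowest for Btg2 (4024 CPM). Microglia replicate 3_17, the library with the most neutrophil RNA, was lowest for F11r (728 CPM), Irf8 (554 CPM), Runx1 (115.2 CPM) and Tgfb1 (6.33 CPM) and highest for C3 (1.17 CPM) and Itgax (28.2 CPM). Microglia replicate 3_18 was highest for Prg4 (2.19 CPM), Siglec1 (1.79 CPM), Ube2c (0.609 CPM) and Aldh1l1 (0.5684 CPM), and replicate 1_5 for P2ry13 (2674 CPM), Rrm2 (1.16 CPM) and Slpi (0.511 CPM).

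The population difference on normal diet differed from that in fasted mice, by the edgeR test of the difference itself, for 19 of the genes described, 14 of them with a positive value. On the log2 scale, the values were 4.11 for Kdm6b and 3.42 for Klf4, and among the isolation genes 4.11 for Nr4a1, 3.80 for Atf3, 3.31 for Egr1, 3.19 for Dnajb1, 3.15 for Klf6, 2.44 for Zfp36, 2.26 for Junb, 2.14 for Btg2 and 2.82 for the chemokine Ccl3. Klf4 and Ccl3 were not called when any normal-diet library but peritoneal replicate 3 was left out, nor with limma voom, and Ccl3 was not called with RLE size factors. Klf4, Ccl3, Junb, Zfp36, Atf3, Egr1, Btg2 and Dnajb1 lost their call with the microglia libraries of a cohort summed or with no cohort term. Summing also ended the calls of Ccnd1, Nfatc2 and Retnla. With limma voom, Atf3, Egr1, Anxa1, Lyz1, Nfatc2 and Retnla were not called either. Junb was called without peritoneal replicate 5 or microglia replicate 1_6, and Zfp36 without peritoneal replicate 4 or 5 or microglia replicate 1_6; leaving out any other normal-diet library ended the call. Anxa1 differed by 4.42, Hip1 by 5.51 and S100a8 by 13.12. The values below 0 were -2.22 for Ccnd1, -4.08 for Nfatc2, -5.66 for Liph, -7.34 for Retnla and -7.86 for Lyz1. The sizes for S100a8 (0 CPM in fasted microglia) and Lyz1 (0 CPM in normal-diet microglia) depend on a prior count. Those for Retnla (0.0127 CPM in normal-diet microglia) and Liph (0.00683 CPM in fasted peritoneal macrophages) rest on a group near 0.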

How the results depend on the processing

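Over RLE size factors, no filter on low counts, DESeq2, voom, thinned libraries, summed cohorts, and the omission of microglia replicate 3_17 with peritoneal replicate 3 (chosen after seeing the data), the normal-diet count ranged from 5001 to 5655 calls, against 5018, and omitting 1 library gave 4516 to 5792. The median log2 fold change of all tested genes was -0.06, and -0.11 with RLE. With the replicate block, 2863 genes were called (1264 higher and 1599 lower). Its numbers 1 and 3 occur in both populations but in different cohorts, so they share only a number. In fasted mice the replicate block gave 2608 calls (1078 higher and 1530 lower), against 2676. There, same-numbered libraries deviated together at a mean r of 0.003, 0 of 8 pairs exceeded 0.1, and 2 of 8 correlated best with their own number. The fasted count under the other alternatives was 2611 to 3534. On high-fat diet the count was 4911 to 5845 (5253 as reported) and with STZ 4464 to 5769 (4974 as reported). The difference between settings depended more on the processing. Its 84 calls became 339 (194 above and 145 below 0) without the filter, 527 (254 and 273) by DESeq2, 30 (28 and 2) with summed cohorts and 49 (32 and 17) without the 2 libraries named above, and omitting 1 normal-diet library gave 44 to 81. By RLE, voom, thinning and no cohort term it was 61 to 121. The causes were not tested. Of 202 genes described for normal diet, 176 kept the same call in each alternative run and in each omission. Of 3421 values 67 lost a call, 8 gained one and 0 reversed one. Genes that were not called could change sign, as C4a did (log2 fold change 0.30, and -0.66 without microglia replicate 1_6). Such changes count as the same call. Of the 19 described for the difference between settings, 6 kept the same call throughout, and 90 of 323 values lost a call. DESeq2 gave 6 genes no adjusted p (Cd163, Fos, Hspa1a, Ighm, Ms4a1 and Prg4), and they were not counted as lost there. Depth limits genes near 0, whose fold changes are bounds or depend on a prior count.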
